A study of Mus musculus with 17 samples.

Results

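Srebf2 and enzymes of cholesterol synthesis were examined in periprostatic fat, the fat pad that lies around the prostate, of mice on 3 feeding schedules. The set was named by gene symbol: Srebf2, Hmgcs1, Idi1, Fdft1, Sqle, Lss, Cyp51 and Dhcr7. A gene was measured where the array annotation ties a probe set to that gene alone, and by the probe set with the highest mean where there were several. Of the 8 genes, 7 were measured among 22180 genes in all, each by 1 probe set. The probe set for Idi1 also carries another gene's symbol, so Idi1 has no value here.

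The animals were 17 male mice of the C57BL/6J strain, and the RNA of each was hybridised to 1 array of the Affymetrix Mouse Gene 2.0 ST type. HFD+CR mice (n = 5) ate a diet with 60 kcal% fat freely for 12 weeks from 6 weeks of age, and for the last 7 weeks were given 70% of the intake of the HFD mice. HFD mice (n = 6) ate that diet freely throughout, and LFD mice (n = 6) ate a diet with 10 kcal% fat freely throughout. All were sampled at 25 weeks. The mice carry no engineered allele in the labels. Restriction here is a smaller ration of the same high-fat diet, so HFD+CR and LFD mice differ in both diet composition and intake. Values are log2 signals, in which a difference of 1 is a 2-fold change. A difference is a log2 difference between group means ± its standard error, from a limma fit over all 17 arrays. Rose and fell are used of genes whose Benjamini-Hochberg adjusted p over the 22180 genes was below 0.05.

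Cells make cholesterol from acetyl-CoA by way of mevalonate, isoprenoids, squalene and lanosterol. Srebf2 encodes SREBP2, the transcription factor that switches these genes on. It is held in the endoplasmic reticulum while sterols are plentiful and is cleaved and sent to the nucleus when they run low, a step that RNA levels do not show. Fat tissue holds a large pool of free cholesterol, much of it around lipid droplets, and is known more for taking cholesterol up than for making it.

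RefSeq promoter sequences (GRCm38.p6) were at hand for 5 of the 7 measured genes, those of Srebf2, Hmgcs1, Lss, Cyp51 and Dhcr7. Srebf2 and Hmgcs1 are shown for their matches to the sterol regulatory element bound by SREBP, Lss and Cyp51 as genes of consecutive steps that were lower in HFD+CR mice than in either other group. Each line gives the 250 bases before the gene start, 5′ to 3′, with capitals for matches to the element or to the NF-Y box.
Srebf2 (chr15:82147019-82147268, plus strand): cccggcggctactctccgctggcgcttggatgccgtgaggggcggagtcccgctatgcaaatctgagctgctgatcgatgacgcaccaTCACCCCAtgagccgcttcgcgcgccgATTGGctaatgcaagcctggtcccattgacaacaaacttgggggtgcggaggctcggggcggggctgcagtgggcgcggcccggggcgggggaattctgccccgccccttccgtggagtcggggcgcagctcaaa
Hmgcs1 (chr13:119690101-119690350, plus strand): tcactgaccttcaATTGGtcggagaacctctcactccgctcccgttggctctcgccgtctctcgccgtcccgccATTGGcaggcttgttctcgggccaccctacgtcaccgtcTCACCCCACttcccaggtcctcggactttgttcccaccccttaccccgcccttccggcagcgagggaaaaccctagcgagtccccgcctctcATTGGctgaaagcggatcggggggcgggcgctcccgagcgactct
Lss (chr10:76531355-76531604, plus strand): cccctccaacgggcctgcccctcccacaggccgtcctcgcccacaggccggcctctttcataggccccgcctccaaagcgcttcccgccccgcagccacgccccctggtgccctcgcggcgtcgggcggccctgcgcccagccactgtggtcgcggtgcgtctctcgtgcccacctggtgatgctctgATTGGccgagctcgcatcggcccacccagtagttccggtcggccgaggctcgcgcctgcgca
Cyp51 (chr5:4104698-4104947, minus strand): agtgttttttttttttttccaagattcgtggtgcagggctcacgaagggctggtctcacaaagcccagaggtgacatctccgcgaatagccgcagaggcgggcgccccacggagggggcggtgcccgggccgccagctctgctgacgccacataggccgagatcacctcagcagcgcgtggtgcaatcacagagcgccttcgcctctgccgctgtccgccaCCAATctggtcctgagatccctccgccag

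The element was searched on both strands as TCACNCCAC, where N is any base, as the core TCACCCCA, and in a longer form of 10 letters, the core with an A before it and a C after it. The core was chosen after the sequences had been read, and its matches can overlap those of the other forms. Only exact matches to these letters were sought and put in capitals, so a window without a match was not shown to lack the element. Hmgcs1 held 1 match to TCACNCCAC, 137 to 129 bases before its start, a motif in 1.05% of 32851 promoter windows of this length. The core was found in Hmgcs1 and Srebf2, and in 1.34% of all windows. The form of 10 letters had no match in any window of the 5 genes, and is in 0.073% of all windows. The NF-Y box CCAAT, bound by a factor that works beside SREBP, stood in a window of each of the 5 genes, with 3 matches in Hmgcs1 and 2 in the third of the 3 windows of Dhcr7. It is common, with 33.85% of all windows holding it. The Sp1 box GGGCGG was also present in each of the 5 genes, against 32.7% of all windows. Of the 10 other synthesis enzymes below that had a window, none held TCACNCCAC or TCACCCCA and all 10 held CCAAT.

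All 7 genes lay above the median signal of every array, which ran from 7.03 to 7.15. Some arrays stood high for markers of other tissues or cells, which touches results below. LFD mouse 2 had a mean of 10.38 over 11 skeletal muscle markers, LFD mouse 3 had 9.29 and HFD+CR mouse 2 had 9.28, against at most 8.20 in the other 14 mice. LFD mouse 3 also stood high for 11 gland epithelium markers (7.78, against at most 6.58 in the others). LFD mice 3 and 6 had means of 10.70 and 10.15 over 7 markers of thermogenic adipocytes, against at most 8.88 in the others. HFD+CR mouse 1 had a mean of 9.69 over 8 male germ cell markers and 6.94 over 5 steroidogenic cell markers, against at most 8.09 and 6.55 in the others. The adipocyte markers that define this tissue were high throughout, with means over 10 genes from 12.24 to 12.78.

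Calorie restriction on the high-fat diet was compared with free feeding on it, which asks how the depot responds to a smaller ration. Most genes of the set fell. Srebf2, Hmgcs1, Sqle, Lss, Cyp51 and Dhcr7 were lower in HFD+CR than in HFD mice, by 0.23 to 0.95, and Fdft1, the squalene synthase gene that stands between them in the pathway, was higher by 0.51. All 7 passed the test, as did 19% of all genes. Of the 7 genes 6 fell, where 11.3% of all genes fell, and 1 rose, where 7.69% rose. The median difference over the 7 genes was -0.53, and over all genes -0.0024. For 5 of the 6 genes that fell, every HFD+CR mouse lay below every HFD mouse, a separation seen for 8.26% of all genes.

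The transcription factor gene Srebf2 changed least of the 6. It measured 9.67, 9.48, 9.57, 9.49 and 9.46 in the HFD+CR mice, against a lowest, median and highest of 9.62, 9.79 and 9.86 in HFD mice and of 9.57, 9.85 and 10.03 in LFD mice. HFD+CR mouse 1 overlapped the HFD range and the other 4 lay below it. The difference HFD+CR minus HFD was -0.23 ± 0.07 (adjusted p = 0.0218), a call that ended without HFD+CR mouse 2, 4 or 5 or HFD mouse 2 or 6 (differences of -0.22 to -0.21, adjusted p of 0.0501 to 0.0607).

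Hmgcs1 encodes HMG-CoA synthase, which condenses acetyl-CoA units at the entry of the pathway. Its signal was 11.73, 11.65, 11.31, 11.69 and 11.46 in HFD+CR mice, against 11.85, 11.87 and 11.97 (lowest, median, highest) in HFD mice and 11.38, 11.62 and 11.79 in LFD mice. The HFD mice lay within 0.12 of one another and above every mouse of the other groups. The difference HFD+CR minus HFD was -0.31 ± 0.08 (adjusted p = 0.00862), 1.24-fold lower.

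Fdft1 encodes squalene synthase, which joins farnesyl units into squalene and commits them to sterols. It went against the others, with 11.10, 11.20, 11.49, 11.05 and 11.28 in HFD+CR mice, against 10.51, 10.75 and 10.81 in HFD mice and 11.06, 11.68 and 11.84 in LFD mice. Every HFD+CR mouse lay above every HFD mouse, a separation in this direction seen for 5.42% of all genes. The difference HFD+CR minus HFD was 0.51 ± 0.12 (adjusted p = 0.00449), 1.43-fold higher.

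Sqle encodes squalene epoxidase, the first step of the pathway to use oxygen. It measured 8.19, 7.98, 7.79, 8.01 and 7.66 in HFD+CR mice, against 8.33, 8.53 and 8.68 in HFD mice and 8.33, 8.94 and 9.18 in LFD mice. The HFD+CR mice lay below every mouse of either other group. Its difference from HFD was -0.60 ± 0.12 (adjusted p = 0.00188), 1.52-fold lower in HFD+CR.

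Lss encodes lanosterol synthase, which folds epoxidized squalene into the ring system of sterols. Its signal was 9.004, 9.03, 8.87, 8.95 and 8.91 in HFD+CR mice, against 9.32, 9.49 and 9.67 in HFD mice and 8.96, 9.56 and 9.73 in LFD mice. The HFD+CR values spanned only 0.16, and all lay below the HFD mice. The difference from HFD was -0.53 ± 0.11 (adjusted p = 0.00159).

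Cyp51 encodes lanosterol 14-alpha demethylase, a cytochrome P450 and the next enzyme after Lss, and had the largest difference of the 7 genes. It measured 8.26, 7.95, 8.01, 7.79 and 7.77 in HFD+CR mice, against 8.34, 8.98 and 9.27 in HFD mice and 8.39, 9.33 and 9.64 in LFD mice. No HFD+CR mouse reached the lowest mouse of either other group. The difference from HFD was -0.95 ± 0.19 (adjusted p = 0.00153), or 1.94-fold lower in HFD+CR.

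Dhcr7 encodes 7-dehydrocholesterol reductase, which makes cholesterol in the last step of its branch. It measured 8.78, 8.51, 8.59, 8.69 and 8.71 in HFD+CR mice, against 9.08, 9.34 and 9.48 in HFD mice and 8.62, 9.12 and 9.28 in LFD mice. All HFD+CR mice lay below all HFD mice, and LFD mouse 2 was the LFD mouse within the HFD+CR range. The difference from HFD was -0.67 ± 0.10 (adjusted p = 0.000115), 1.60-fold lower in HFD+CR and the smallest p of the 7 genes in this comparison.

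**Figure D1:**
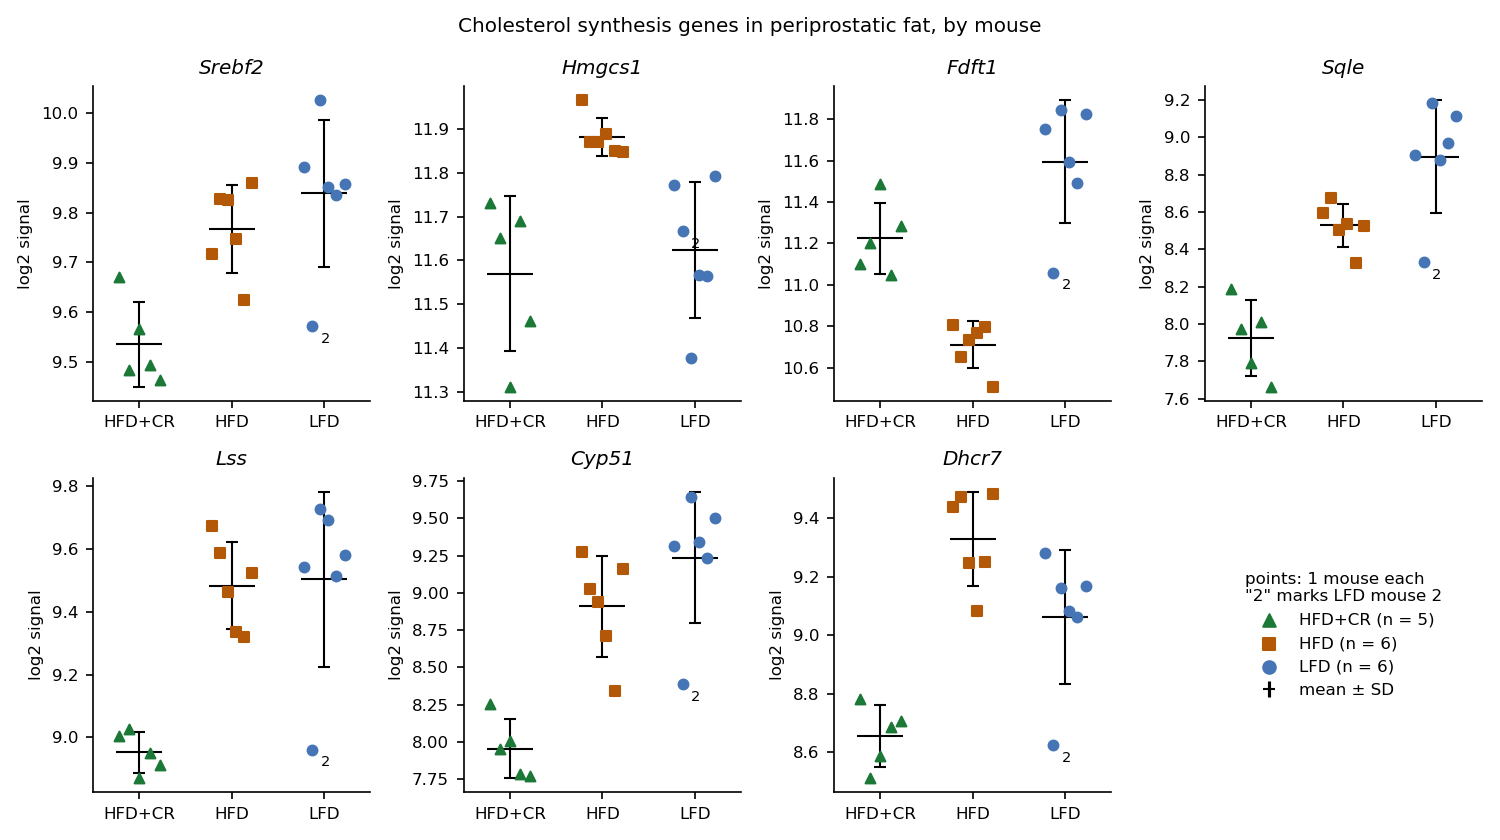
Log2 signal of each of the 7 genes (vertical axes, a separate scale per gene) in HFD+CR, HFD and LFD mice, 1 point per mouse, with bars at mean ± SD and LFD mouse 2 marked. Hmgcs1 is highest in HFD, Fdft1 is lowest in HFD, and Srebf2, Sqle, Lss, Cyp51 and Dhcr7 are lowest in HFD+CR.

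Markers of cell types moved between the same groups. Of 11 macrophage markers 10 fell and 1 rose in HFD+CR against HFD, with list means of 9.68 to 10.51 in HFD+CR mice and 10.87 to 11.40 in HFD mice. Of 10 adipocyte markers 8 rose and none fell, with list means of 12.52 to 12.73 in HFD+CR mice and 12.24 to 12.42 in HFD mice. Of all genes 11.3% fell and 7.69% rose in this comparison. In this comparison the 6 genes that fell moved the same way as 10 of the 11 macrophage markers. They moved the opposite way to the 8 adipocyte markers. Fdft1 moved with the 8 adipocyte markers. Relative to each array's adipocyte marker mean, a scaling that moves the median of all genes by -0.30 and puts 17482 of 22180 genes lower, the 6 falls were -1.25 to -0.53 and Fdft1 was at 0.22 (adjusted p = 0.0717). Less that shift, the 6 were at -0.95 to -0.23 and Fdft1 at 0.52. Up to the median of all genes these are the unscaled differences again, because the scaling moves every gene of an array alike. They hold no information on cell composition. In tissue RNA, fewer cells of a type and less RNA per cell cannot be told apart, and the part of cell composition in these differences was not tested. Without HFD+CR mouse 1, the difference of Cyp51 was -1.03 and that of Sqle -0.67, each still past the threshold.

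The comparison of HFD with LFD mice asks what the high-fat diet does under free feeding. Here the 7 genes split. Fdft1 and Sqle were lower in HFD than in LFD, Hmgcs1 and Dhcr7 were higher, and no call was made for Srebf2, Lss or Cyp51. Of the 7 genes 4 passed the test, where 27.8% of all genes did. That is, 2 of the 7 genes rose, where 16.5% of all genes rose, and 2 fell, where 11.3% fell. The median difference of the 7 genes was -0.07.

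Fdft1 had by far the largest difference, -0.88 ± 0.11 (adjusted p = 8.85e-06). It averaged 10.71 ± 0.11 in HFD mice and 11.60 ± 0.30 in LFD mice (SD, n = 6 each), 1.85-fold lower in HFD, and no HFD mouse reached the lowest LFD mouse, a separation seen downward for 5.21% of all genes. Hmgcs1 was higher by 0.26 ± 0.08 (adjusted p = 0.0145), again with no overlap, a separation seen upward for 9.05% of all genes. That call ended (0.21, adjusted p = 0.0861) without 4 arrays that earlier work on these data had named for muscle or gland markers, HFD+CR mouse 2, HFD mouse 3 and LFD mice 2 and 3. HFD mouse 3 had 7.23 for the muscle and 6.58 for the gland list here.

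The remaining calls between HFD and LFD hung on single arrays. Sqle differed by -0.37 ± 0.12 (adjusted p = 0.0247), a call that ended without HFD mouse 5, LFD mouse 3 or LFD mouse 6 (-0.33 to -0.31, adjusted p of 0.0545 to 0.0611) and was -0.24 without both of these LFD mice (adjusted p = 0.162). Dhcr7 differed by 0.27 ± 0.10 (adjusted p = 0.0451), which lost its call in 16 of 31 alternatives. These included leaving out HFD+CR mouse 3, 4 or 5, HFD mouse 1, 2, 3 or 6, or LFD mouse 2, 4 or 5, with differences of 0.18 to 0.28 and adjusted p of 0.0522 to 0.103, the lowest difference being without LFD mouse 2. LFD mouse 2, with high muscle markers, was the lowest LFD mouse for Srebf2, Fdft1, Sqle, Lss, Cyp51 and Dhcr7. Without it Cyp51 had a difference of -0.50 (adjusted p = 0.012), against -0.33 ± 0.18 with it (adjusted p = 0.21). Of the other mice high for muscle markers, LFD mouse 3 was the highest LFD mouse for these genes other than Dhcr7, and HFD+CR mouse 2 was the lowest of its group for Dhcr7 alone. The 95% interval of the difference was -0.23 to 0.19 for Lss and -0.21 to 0.06 for Srebf2.

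Between HFD and LFD mice, 10 of 11 macrophage markers rose and 9 of 10 adipocyte markers fell, with adipocyte list means of 12.24 to 12.42 in HFD mice and 12.67 to 12.78 in LFD mice. Of all genes 16.5% rose and 11.3% fell. Relative to each array's adipocyte marker mean, which moved the median of all genes by 0.37 and put 19260 of 22180 genes higher, Fdft1 was at -0.51 (adjusted p = 0.000184) and Sqle at 0.0077 (adjusted p = 0.955). Less that shift, the differences were -0.88 for Fdft1, -0.37 for Sqle, -0.32 for Cyp51, -0.07 for Srebf2, -0.02 for Lss, 0.26 for Hmgcs1 and 0.27 for Dhcr7. Here too they are the unscaled differences again, up to the median of all genes. The part of cell composition was not tested.

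Restricted high-fat feeding was also set against free low-fat feeding. In this comparison 5 of 7 genes passed the test, where 9.08% of all genes did. All 5 were lower in HFD+CR, as were 3.28% of all genes, and none was higher, as were 5.8% of all genes. Cyp51 differed by -1.28 ± 0.19 (adjusted p = 0.000358), or 2.43-fold lower in HFD+CR, and Sqle by -0.97 ± 0.12 (adjusted p = 9.45e-05), or 1.96-fold lower. For these 2 genes no HFD+CR mouse overlapped the LFD mice, as for 2.43% of all genes, and no gene of the set was separated upward, as 4.24% of all genes were. Lss was lower by 0.55 on the log2 scale (-0.55 ± 0.11, adjusted p = 0.00291), Dhcr7 differed by -0.41 ± 0.10 (adjusted p = 0.014) and Srebf2 by -0.30 ± 0.07 (adjusted p = 0.00779). For Lss and Dhcr7, LFD mouse 2 was the LFD mouse that overlapped HFD+CR. Hmgcs1 was at -0.05 ± 0.08 (adjusted p = 0.758, 95% interval -0.22 to 0.11) and Fdft1 at -0.37 ± 0.12 (adjusted p = 0.059). Fdft1 was called lower in 5 of 31 alternatives, at -0.44 without HFD+CR mouse 3 (adjusted p = 0.0372) and at -0.48 without LFD mouse 2 (adjusted p = 0.00186). Dhcr7 lost its call without LFD mice 3 and 6, which were high for thermogenic markers (-0.36, adjusted p = 0.071). Relative to the adipocyte marker mean, Dhcr7 (-0.33, adjusted p = 0.0642) and Srebf2 (-0.22, adjusted p = 0.119) lost their calls. That scaling moved the median of all genes by 0.08 in this comparison. Less that shift, Dhcr7 was at -0.41 and Srebf2 at -0.30, the unscaled differences again up to the median of all genes. Of 11 macrophage markers 6 were higher in HFD+CR than in LFD and none was lower, against 5.8% and 3.28% of all genes. Of 10 adipocyte markers 1 was lower and none was higher. The part of cell composition was not tested here either. The 3 comparisons share their arrays, so they are not independent of each other.

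The order of the group means thus differed between genes. For Srebf2, Sqle, Lss and Cyp51 it was HFD+CR, HFD and LFD from low to high, with no call between HFD and LFD for Srebf2, Lss or Cyp51. Dhcr7 had the order HFD+CR, LFD, HFD, with the LFD and HFD neighbours close to the threshold. Hmgcs1 had that order too, with no call between HFD+CR and LFD. Fdft1 had the order HFD, HFD+CR, LFD, with no call between HFD+CR and LFD.

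Other enzymes of the pathway were taken from a list that held 14 genes, of which 11 were measured. In HFD+CR against HFD mice none of the 11 rose, where 7.69% of all genes rose, and their median difference was -0.37. Of the 11 genes 6 fell, where 11.3% of all genes fell. Those with the largest falls were Fdps, which makes the farnesyl diphosphate that Fdft1 uses (-0.68 ± 0.13, adjusted p = 0.00127), the sterol C4-methyl oxidase gene Msmo1 (-0.61 ± 0.10, adjusted p = 0.000238), the phosphomevalonate kinase gene Pmvk (-0.51 ± 0.10, adjusted p = 0.00166) and the 3-ketosteroid reductase gene Hsd17b7 (-0.46 ± 0.12, adjusted p = 0.0129). Fdft1 was thus higher while the enzymes before and after it, Fdps and Sqle, were lower. In HFD+CR against LFD mice 8 of 11 fell, where 3.28% of all genes fell, and none rose, where 5.8% rose. The largest falls were those of Pmvk (-1.11 ± 0.10, adjusted p = 5.6e-06), Fdps (-0.71 ± 0.13, adjusted p = 0.00226), Msmo1 (-0.58 ± 0.10, adjusted p = 0.00105) and the mevalonate decarboxylase gene Mvd (-0.50 ± 0.08, adjusted p = 0.000606). In HFD against LFD mice 3 of 11 fell, where 11.3% of all genes fell. They were Pmvk (-0.60 ± 0.10, adjusted p = 0.000113), the sterol C14 reductase gene Tm7sf2 (-0.40 ± 0.10, adjusted p = 0.00488) and the sterol C5 desaturase gene Sc5d (-0.24 ± 0.08, adjusted p = 0.0271). None rose, where 16.5% of all genes rose. But relative to the adipocyte marker mean, where 19260 of 22180 genes rose, 8 of 11 rose and 1 fell, with Sc5d at 0.14. The call of Sc5d also ended without HFD mouse 3 or 6 or LFD mouse 1, 3, 4 or 6 (-0.23 to -0.20, adjusted p of 0.0526 to 0.0654).

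**Figure D2:**
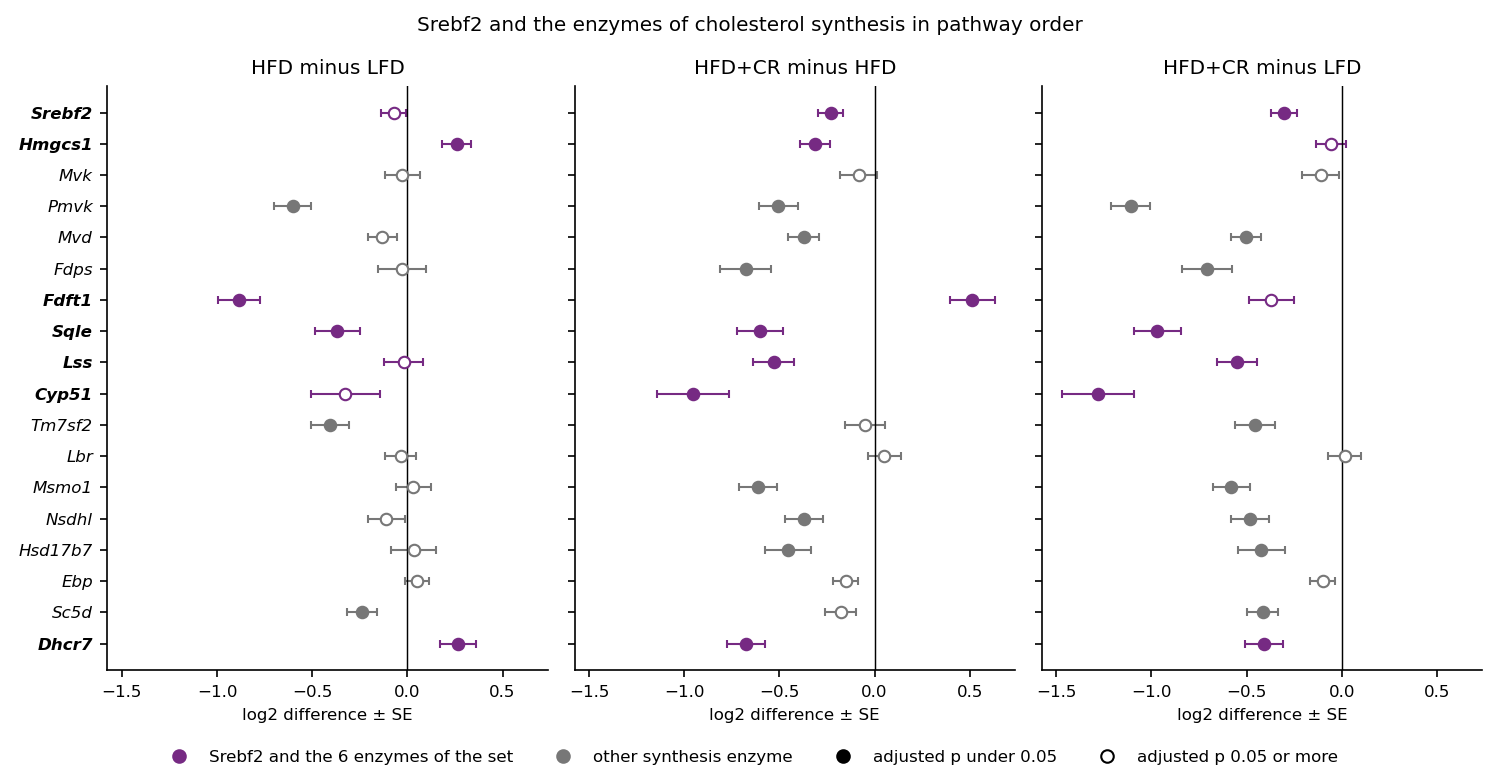
Log2 difference ± SE (horizontal axis) for Srebf2 and 17 enzymes from the entry of the pathway (top) to its end (bottom), in 3 comparisons, with filled points for adjusted p under 0.05. In HFD+CR minus HFD, Fdft1 at 0.51 is the filled point to the right of 0 and 12 other genes are filled to the left.

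Of 10 measured genes that control SREBP, 1 passed the test in HFD+CR against HFD, where 19% of all genes did, 2 in HFD against LFD, where 27.8% did, and 2 in HFD+CR against LFD, where 9.08% did. The gene that passed in HFD+CR against HFD, Insig2, rose (0.16 ± 0.06, adjusted p = 0.0466), but relative to the adipocyte marker mean, where 17482 of 22180 genes fell, none rose and 8 fell. Insig2, which retains SREBP in the endoplasmic reticulum, lost that call in 17 alternatives and was at -0.13 on the adipocyte scale (adjusted p = 0.06). Insig1, a retention factor and itself a target of SREBP, was at -0.32 ± 0.12 in this comparison (adjusted p = 0.083), -0.28 ± 0.12 in HFD minus LFD (adjusted p = 0.0939) and fell in HFD+CR against LFD (-0.60 ± 0.12, adjusted p = 0.00474). Srebf1, whose main product in fat drives fatty acid synthesis, fell in HFD against LFD (-0.58 ± 0.10, adjusted p = 0.000197) and in HFD+CR against LFD (-0.47 ± 0.10, adjusted p = 0.00706), and was at 0.11 ± 0.10 in HFD+CR minus HFD (adjusted p = 0.555). Mbtps2, a protease that frees SREBP, rose by 0.19 ± 0.04 in HFD against LFD (adjusted p = 0.00196).

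Of a list of 11 genes of cholesterol uptake and of its transport inside the cell, 8 were measured. In HFD against LFD mice 5 rose, where 16.5% of all genes rose, and none fell, where 11.3% fell, with a list median of 0.37. In HFD+CR against HFD 6 fell, where 11.3% of all genes fell, and none rose, where 7.69% rose, with a list median of -0.28. Lipa, the lysosomal lipase that frees cholesterol from its esters, averaged 12.65 in HFD mice and 11.12 in LFD mice (1.53 ± 0.11, adjusted p = 1.87e-08), and fell by 0.90 in HFD+CR against HFD (-0.90 ± 0.11, adjusted p = 2.7e-05). Npc1, which carries cholesterol out of lysosomes, rose by 0.66 ± 0.07 in HFD against LFD (adjusted p = 4.93e-07) and fell in HFD+CR against HFD (-0.31 ± 0.07, adjusted p = 0.00367). The endosomal sterol carrier gene Stard3 did likewise (0.45 ± 0.05, adjusted p = 3.57e-06, and -0.46 ± 0.06, adjusted p = 1.99e-05), as did the lipoprotein receptor gene Lrp1 (0.41 ± 0.05, adjusted p = 1.41e-05, and -0.25 ± 0.06, adjusted p = 0.00382). Against LFD, 2 of the 8 rose in HFD+CR and none fell, where 5.8% of all genes rose and 3.28% fell. The 2 were Lipa (0.63 ± 0.11, adjusted p = 0.00157) and Npc1 (0.36 ± 0.07, adjusted p = 0.00284). Macrophage markers rose and fell between the same groups, and their part in these differences was not tested. Stard4, a cytosolic sterol carrier known as a target of SREBP2, was at 0.06 ± 0.08 in HFD minus LFD (adjusted p = 0.602) and fell in HFD+CR against HFD (-0.32 ± 0.08, adjusted p = 0.00884).

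Fatty acid synthesis shares its acetyl-CoA supply with cholesterol synthesis. All 12 genes on that list fell in HFD against LFD mice, where 11.3% of all genes fell, with a list median of -1.01. But relative to the adipocyte marker mean, where 19260 of 22180 genes rose, 9 of 12 fell and 1, Scd1, rose (0.22). Among the 12 were the elongase gene Elovl6 (-2.26 ± 0.22, adjusted p = 4.23e-07), the acetyl-CoA carboxylase gene Acaca (-1.82 ± 0.14, adjusted p = 3.75e-08), the lipogenesis regulator gene Thrsp (-1.65 ± 0.11, adjusted p = 1e-08) and a further carboxylase gene, Acacb (-1.54 ± 0.19, adjusted p = 5.88e-06). In HFD+CR against HFD 2 of 12 rose and none fell, where 7.69% of all genes rose and 11.3% fell, with a list median of 0.12. But on the adipocyte scale, where 17482 of 22180 genes fell, 1 rose and 5 fell. The 2 that rose without that scaling were Thrsp (0.61 ± 0.12, adjusted p = 0.000984) and the stearoyl-CoA desaturase gene Scd1 (0.12 ± 0.03, adjusted p = 0.0145). Scd1 was at -0.18 on the adipocyte scale and lost its call with quantile normalization again (0.04, adjusted p = 0.428), with arrays centred on their medians (0.10, adjusted p = 0.0827) and with the mouse number as a replicate block (0.11, adjusted p = 0.051). The count that rose was 6 without LFD mouse 2, 4 without HFD+CR mouse 1, 4 with that block and 1 with arrays centred on their medians. The ATP citrate lyase gene Acly went the other way, at -0.32 in HFD+CR minus HFD (adjusted p = 0.0978), and was called lower in 6 alternatives, among them without LFD mouse 2 (-0.32, adjusted p = 0.01). Against LFD, 10 of 12 were lower in HFD+CR, as were 3.28% of all genes, with a list median of -0.88. The difference between this list and the 7 genes was not tested.

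**Figure D3:**
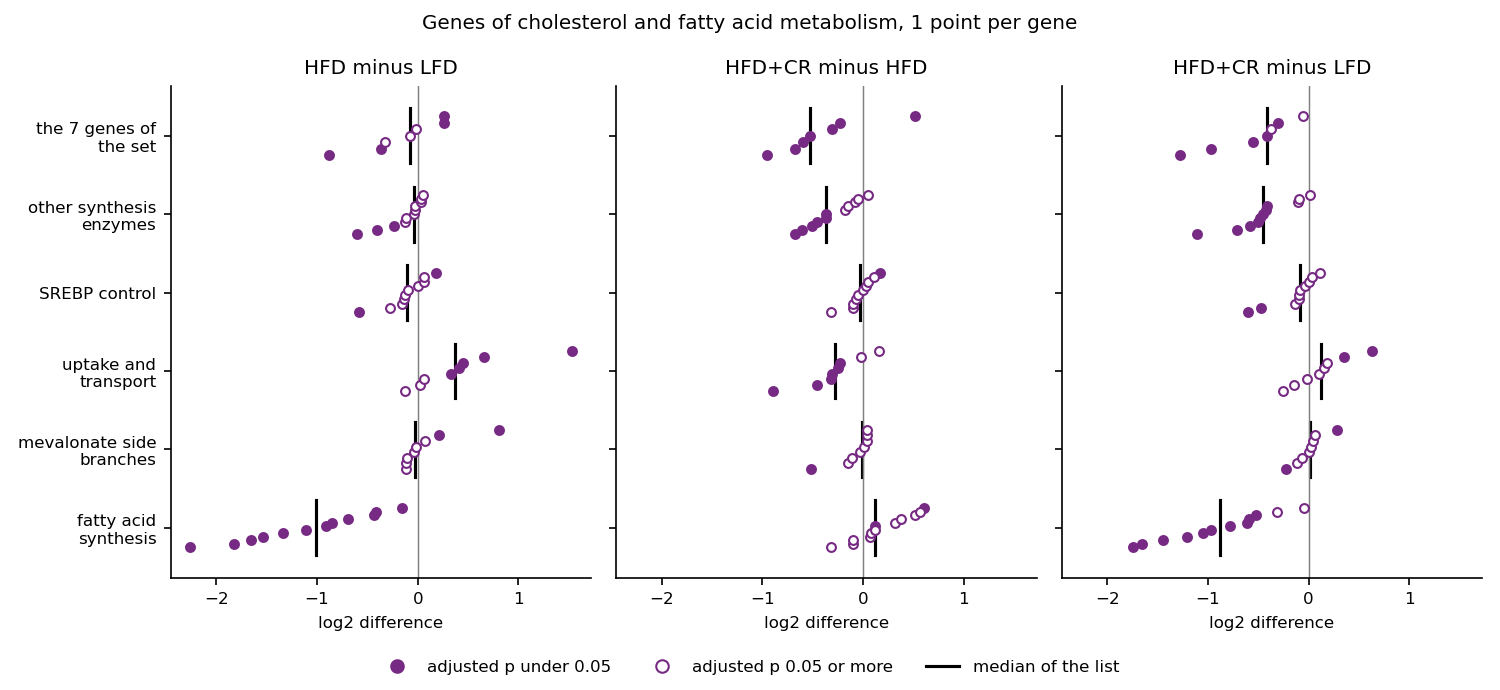
Log2 difference (horizontal axis) of each measured gene in 6 lists, in 3 comparisons, 1 point per gene, filled for adjusted p under 0.05, with a bar at the median of each list. The medians in HFD+CR minus HFD are -0.53 for the 7 genes and -0.37 for other synthesis enzymes, and 0.12 for fatty acid synthesis.

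The mice of a group also differed among themselves. After the group means were removed, the 5 genes Srebf2, Sqle, Lss, Cyp51 and Dhcr7 deviated together over the 17 arrays, with Pearson correlations of 0.67 to 0.89 and Spearman correlations of 0.50 to 0.87 over their 10 pairs. LFD mouse 2 carried part of this, and without it the Pearson correlations were 0.28 to 0.78, with a median of 0.54. Fdft1 correlated with these 5 genes at 0.45 to 0.57 with LFD mouse 2 and at -0.22 to -0.0076 without it. Hmgcs1 correlated with the other 6 genes at -0.30 to 0.17 with LFD mouse 2 and at -0.34 to 0.36 without it. These are descriptions, with no test, over arrays that share 1 normalization.

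**Figure D4:**
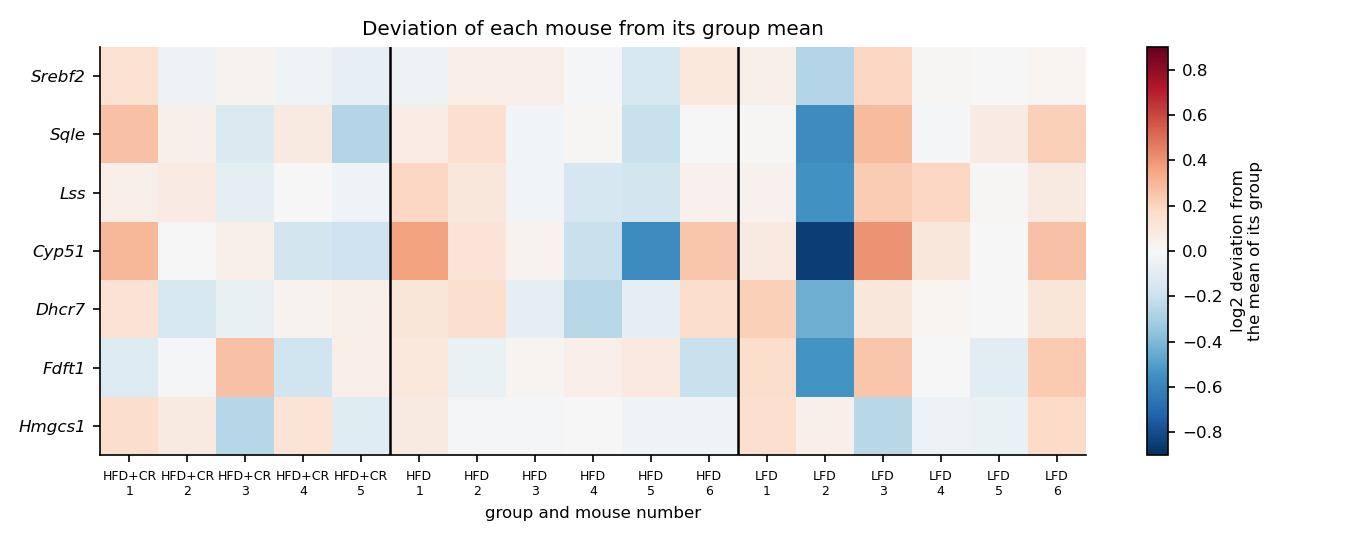
Deviation of each mouse from the mean of its group on the log2 scale (colour) for the 7 genes (rows) in the 17 mice (columns, grouped as HFD+CR, HFD and LFD). LFD mouse 2 is below its group mean for all genes shown except Hmgcs1, and Cyp51 has the widest deviations.

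Cyp51 had the widest spread of the 7 genes in HFD mice (SD 0.34) and in LFD mice (SD 0.44), and Sqle and Cyp51 had the widest in HFD+CR mice (SD 0.20 each). Hmgcs1 in HFD mice had the narrowest, with an SD of 0.04. In the HFD group, mouse 5 was the lowest for Srebf2, Sqle, Lss and Cyp51, while in the HFD+CR group mouse 1 was the highest for Srebf2, Hmgcs1, Sqle, Cyp51 and Dhcr7. LFD mice 3 and 6, high for thermogenic markers, had the highest LFD values of Fdft1, Sqle and Cyp51.

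The genes most like the set were sought outside all lists and without predicted genes. The measure was the Pearson correlation over 17 arrays of a gene's log2 signal with the mean of the 7 genes' standardised values. Likeness to this mean is not likeness to each gene. Within groups, Hmgcs1 correlated with the other 6 genes at -0.30 to 0.17. Without LFD mouse 2, Fdft1 correlated with Srebf2, Sqle, Lss, Cyp51 and Dhcr7 at -0.22 to -0.0076. With group means removed the highest were Slc27a4 (0.93), Ppp2r5b (0.93), Pcyt2 (0.92), Atox1 (0.89), Tomm22 (0.88), Znhit1 (0.87), Med27 (0.86) and Cptp (0.86). Their Spearman correlations were 0.75 to 0.88, and without LFD mouse 2 the Pearson correlations were 0.73 to 0.85. With group means kept they were Ppp2r5b (0.97), Slc27a4 (0.96), Gnptab (0.96), Prune2 (0.94), Pgd (0.94), Zmpste24 (0.91), Hephl1 (0.91) and Megf9 (0.91), chosen in part for their group differences. Ppp2r5b, a regulatory subunit gene of protein phosphatase 2A, and Slc27a4, a fatty acid transporter gene, stood in both lists. Ppp2r5b averaged 10.21 in HFD+CR, 10.57 in HFD and 10.70 in LFD mice, and Slc27a4 averaged 8.91 in HFD+CR, 9.20 in HFD and 9.23 in LFD mice.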

How the data were processed

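The authors deposited log2 expression values per probe set, 33793 in all, for 17 arrays. RMA, limma and R 3.5.0 are named, per the submitters' processing notes, with no role or order. RMA is a method that removes background, aligns the arrays' distributions and combines the probes of a probe set. The log2 range of 4.55 to 14.4 and the array medians of 7.03 to 7.15 were checked. The genome build of the files is not given in the sources used here.

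Of the probe sets, 23521 had 1 gene symbol, which left 22180 genes with the highest-mean probe set each. No filter and no rescaling were applied. A mean per group was fitted by lmFit and eBayes of limma 3.58.1 (R 4.3.3; no trend, two-sided, with residual degrees of freedom of 14 and a prior of 3.63), with 3 contrasts and Benjamini-Hochberg adjustment. The procedure was tested on simulated data. The number of arrays limits the precision. Labels describe the mice as separate animals, and no array pair was identical. Members and gene lists were chosen with earlier results of these data known, so no test over a list was made, and lists are described by counts and medians. Genes to be named were all members, up to 4 genes per list and comparison with the largest difference among those that passed (or the 2 with the smallest p), Insig1, Srebf1 and Stard4, and the 8 most alike by either correlation. Genes of the lists without a probe set of their own were not analysed here. Alternatives were other summaries, normalizations, variance models, thresholds and array subsets, the mouse number as a block, and each array left out. Mouse numbers were checked for pairing by correlating deviations from group means. Promoter windows were those of RefSeq for GRCm38.p6. Figures were drawn with matplotlib 3.10.9.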

Additional observations from a re-analysis of the deposited data

Results flagged for a closer look

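Dixon's test at the 95% level was applied to 99 sets of values, each of 1 named gene in 1 group of 5 or 6 mice. In 7 sets the highest or lowest mouse was set apart from the rest. Chance alone gives this in about 1 of 20 independent sets. The genes share the same arrays, so these sets are not independent. Of the 7, 6 were LFD mouse 2, the array with the highest muscle markers. It measured 8.33 for Sqle (next lowest LFD mouse 8.88), 8.96 for Lss (next 9.51), 8.39 for Cyp51 (next 9.23), 8.62 for Dhcr7 (next 9.06), 11.87 for Sc5d (next 12.31) and 9.76 for Fdps (next 10.52). The other was HFD mouse 1, the highest HFD mouse for Hmgcs1 at 11.97 (next 11.89). The part of muscle RNA in the low values of LFD mouse 2 was not tested.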

How the results depend on the processing

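In HFD+CR against HFD, 6 genes lower and 1 higher were also found in all 17 fits without 1 array, except that the lower count was 5 without any of the 5 arrays that ended the call of Srebf2. Requiring at least a 1.5-fold difference left 3 lower and 0 higher, and scaling to the adipocyte marker mean left 0 higher. In HFD+CR against LFD the 5 genes lower became 2 with the fold minimum and 3 with adipocyte scaling, and 5 to 6 without 1 array. In HFD against LFD the 2 genes higher became 1 with every probe set tested, with quantile normalization again and with only the arrays compared. The count was 0 at adjusted p under 0.01, with the fold minimum, and without the 4 arrays that earlier work had named. It was 4 with adipocyte scaling, and 1 to 2 without 1 array. The 2 genes lower became 1 without LFD mice 3 and 6, with adipocyte scaling, at adjusted p under 0.01 and with the fold minimum, and 1 to 3 without 1 array. Adipocyte scaling shifts all genes, giving 271 genes higher and 17482 lower for HFD+CR against HFD (as reported 1705 and 2508), 19260 higher and 324 lower for HFD against LFD (3663 and 2502), and 2088 higher and 323 lower for HFD+CR against LFD (1287 and 728). Among named genes of the lists with a call before or after this scaling, some signs turned. In HFD minus LFD they were those of Lss (0.36), Srebf2 (0.30), Sqle (0.0077), Fdps (0.35), Mvd (0.25), Sc5d (0.14), Insig2 (0.25), Fnta (0.26) and Scd1 (0.22). In HFD+CR minus HFD they were those of Insig2 (-0.13) and Scd1 (-0.18). Signs also turned, with no call before or after, for Cyp51 (0.05) and Insig1 (0.10) in HFD minus LFD. Srebf1 (-0.19) did the same in HFD+CR minus HFD. At adjusted p under 0.01, the counts were 965 up and 1610 down for HFD+CR against HFD, 615 and 352 for HFD+CR against LFD, and 1541 down for HFD against LFD. With a fold minimum they were 190 and 504, 206 and 98, and 830 and 302 in the same order. Array weights gave 2630 up for HFD+CR against HFD. The share of calls that were up was 40.5%, 59.4% and 63.9% for HFD+CR against HFD, HFD against LFD and HFD+CR against LFD, and 1.53%, 98.3% and 86.6% with adipocyte scaling. Deviations of arrays with the same mouse number had median correlations of -0.0087 (HFD+CR with HFD), 0.09 (HFD+CR with LFD) and 0.03 (HFD with LFD). Other pairs had medians of 0.0070, -0.036 and -0.024. The highest same-number correlations were 0.14, 0.30 and 0.41. With the mouse number as a replicate block the counts of the 7 genes were 6 lower and 1 higher in HFD+CR against HFD, 2 and 2 in HFD against LFD, and 5 and 0 in HFD+CR against LFD.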

Other observations

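Side branches of the mevalonate pathway lead to dolichol, ubiquinone and prenylated proteins. Of 8 measured genes 1 passed the test in HFD+CR against HFD and fell, where 19% of all genes passed, and 2 passed in HFD against LFD and rose, where 27.8% passed. Against LFD, 1 rose and 1 fell in HFD+CR, where 9.08% of all genes passed. Relative to the adipocyte marker mean all 8 fell in HFD+CR against HFD, as did 17482 of 22180 genes, and all 8 rose in HFD against LFD, as did 19260. Nus1, a subunit of the enzyme that makes dolichol precursors, averaged 9.97 in HFD+CR mice, 10.48 in HFD mice and 9.68 in LFD mice. It fell in HFD+CR against HFD (-0.52 ± 0.08, adjusted p = 0.000233) and rose in HFD against LFD (0.80 ± 0.08, adjusted p = 4.72e-07). It was also higher in HFD+CR than in LFD (0.29 ± 0.08, adjusted p = 0.0362), a call that ended in 12 of 31 alternatives. These included leaving out HFD+CR mouse 1, 2, 4 or 5 or LFD mouse 3, 4, 5 or 6 (0.25 to 0.29, adjusted p of 0.0595 to 0.0935). Pggt1b, a subunit of a protein prenyltransferase, rose by 0.22 ± 0.06 in HFD against LFD (adjusted p = 0.00683). Fnta, a subunit shared by protein prenyltransferases, fell in HFD+CR against LFD (-0.23 ± 0.05, adjusted p = 0.00456).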
